A study of Mus musculus with 23 samples.

Results

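Footprints of 9 smooth muscle genes were examined in ribosome profiling (Ribo-seq) libraries made from a pulldown of tagged ribosomes out of mouse small intestine. The genes were Myh11, Acta2, Actg2, Tpm2, Mylk, Cnn1, Tagln, Des and Synm. They were taken by name from a list that was chosen with earlier results of these data known. They are 9 of the 22314 genes counted in the mouse libraries and of the 22350 genes counted in any library. A footprint is the piece of mRNA that a ribosome shields from nuclease, and the values of a gene are the footprints the authors assigned to its sequences, which in mice take in the 5′ region before the coding sequence.

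The study compared intestinal stem cells with and without Raptor, the protein of Rptor and an essential component of mTORC1. Of its 23 libraries, 6 came from mice and 17 from organoids, which are epithelial cultures grown from crypts. Each mouse group held 3 animals of the C57BL/6 strain, aged 8 to 12 weeks. The WT mice carried Lgr5CreERT2 and the RPL22.HA allele, and the Rptor fl/fl mice carried both of these and floxed Rptor. All 6 mice therefore shared the Cre driver and the tag. The paper's methods give a single tamoxifen injection 24 h before collection, while the labels call the mice untreated. Lgr5CreERT2 is active in Lgr5-positive stem cells at the crypt base, so that the HA tag on the ribosomal protein RPL22 marks ribosomes of those cells. The small intestine was flushed, frozen and ground, with no step given that takes off the muscle wall, and tagged ribosomes were bound overnight. The organoid Ribo-seq libraries came from VillinCreERT2 organoids with the same RPL22.HA allele, bound for 4 h. The Rptor fl/fl organoids carried floxed Rptor, and the stem cell enriched (SCe) organoids had no floxed Rptor and were grown with 10 µM CHIR 99021 and 1.5 mM valproic acid. For VillinCreERT2 animals the methods give consecutive tamoxifen injections and a longer wait before collection than for the Lgr5CreERT2 mice. An extra set with floxed Rptor was induced in vitro. The methods do not tie either way of induction to a library. Organoids of the WT, Rptor fl/fl and SCe kinds also had RNA-seq, made without a pulldown. No mouse library without the tag, without the antibody or of total RNA was analysed here.

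Smooth muscle forms the outer layers of the gut wall and the thin muscle sheet beneath the mucosa, and its contractions move the contents along. Force comes from smooth muscle myosin pulling on actin filaments after myosin light chain kinase has phosphorylated the myosin. Intermediate filaments of desmin and synemin hold the contractile units in place, and the genes of the apparatus are commonly driven by serum response factor and its cofactors. Epithelial stem cells are not known to make the smooth muscle myosin heavy chain, calponin or desmin.

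By role, the contractile filament is represented by 4 genes. Myh11 encodes the smooth muscle myosin heavy chain and lies on chromosome 16 from 14194535 to 14291372 on the minus strand (mm10). Acta2, the vascular type of smooth muscle alpha-actin, lies on chromosome 19 from 34241090 to 34255590 on the minus strand. Actg2, the enteric gamma-actin and the actin most typical of gut muscle, lies on chromosome 6 from 83512905 to 83536265 on the minus strand. Tpm2 encodes beta-tropomyosin, which winds along the actin filament, and lies on chromosome 4 from 43514711 to 43523765 on the minus strand. There are 3 regulators and binding proteins. Mylk, the gene of myosin light chain kinase, lies on chromosome 16 from 34745210 to 35002420 on the plus strand. Cnn1 encodes calponin, an actin-binding protein that restrains contraction, and lies on chromosome 9 from 22099216 to 22109630 on the plus strand. Tagln encodes transgelin (SM22), an actin cross-linker, and lies on chromosome 9 from 45929619 to 45936058 on the minus strand. The remaining 2 genes encode intermediate filament proteins. They are Des (desmin), on chromosome 1 from 75360329 to 75368579 on the plus strand, and Synm (synemin), on chromosome 7 from 67730160 to 67759742 on the minus strand.

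Because the actins are closely alike in sequence, the assignment of short footprints to Acta2 and Actg2 is less certain than for the other members. The coding sequences of Acta2 and Actg2 were 83.8% identical, and those of Acta2 and Actb, the cytoplasmic beta-actin, were 83.0% identical. The stretch of 60 bases with the fewest differences between Acta2 and Actg2, among those within a single exon, is shown. Actb is given at the same position and was not used in the choice. The GENCODE coding sequences on GRCm38 were used, with capitals marking bases that differ from Acta2. All lie on minus strands and are written 5′ to 3′.
Acta2, chr19:34243320-34243379: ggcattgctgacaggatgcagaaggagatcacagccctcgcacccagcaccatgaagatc
Actg2, chr6:83516271-83516330: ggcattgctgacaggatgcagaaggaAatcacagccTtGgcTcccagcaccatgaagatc
Actb, chr5:142904070-142904129: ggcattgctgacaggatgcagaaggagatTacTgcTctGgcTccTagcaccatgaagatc

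In this stretch Actg2 differed from Acta2 at 4 of 60 bases and Actb differed at 6. Windows of 28 bases, about the length of a footprint, were then compared over whole coding sequences. Of the 1107 windows of Acta2, 35 (3.16%) occurred without a change in another actin, and of the 1104 windows of Actg2, 23 (2.08%) did. When 1 difference was allowed, the shares were 16.1% for Acta2 and 15.9% for Actg2, and with 2 differences they were 41.5% and 44.4%. The longest run of identical bases was 56 between Acta2 and Actg1, 47 between Acta2 and Actb, and 29 between Acta2 and Actg2. Among the other members, 1.39% of the windows of Myh11 were shared with other genes, 70 of the 82 shared windows with the non-muscle myosin Myh9, 0.966% of those of Tpm2, with Tpm1, and 0.795% of those of Des. Cnn1, Tagln, Mylk and Synm shared no window of 28 bases with any other gene of the set searched.

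Depth differed between the pulldown libraries. Between 772077 and 5337092 footprints were assigned per WT mouse and between 3085617 and 8238388 per Rptor fl/fl mouse. The SCe organoid Ribo-seq libraries held 1106178 to 4242425 footprints, and the Rptor fl/fl organoid libraries held 5992941 to 8257457. The RNA-seq libraries held 23802944 to 29690442 reads in WT and Rptor fl/fl organoids and 27439459 to 67598878 in SCe organoids. The targeted gene, Rptor, had 33, 87 and 245 footprints in the WT mice and 99, 113 and 292 in the Rptor fl/fl mice. After scaling this was 42.1 ± 2.53 CPM in WT mice and 34.6 ± 2.15 CPM in Rptor fl/fl mice (mean ± SD, n = 3 each), where CPM is the count scaled to 1000000 reads after TMM. The groups did not overlap, and the log2 fold change of −0.28 (SE 0.123) did not pass the test (edgeR, adjusted p = 0.15). In RNA-seq of organoids Rptor fell by 1.71 on the log2 scale (SE 0.0835, edgeR adjusted p = 0.00516, 2 organoid lines against 2). In organoid Ribo-seq it had 15.2, 41.9 and 21.0 CPM in the SCe libraries and 17.3, 18.7 and 15.95 CPM with floxed Rptor, which overlapped (log2 fold change −0.53, SE 0.335, edgeR adjusted p = 0.318). Lgr5, the gene that drives the tag, was low in the mice, with 9, 17 and 48 footprints in the WT mice and 139, 28 and 50 in the Rptor fl/fl mice. That is 7.76 to 11.4 CPM in WT mice and 6.32 to 45.8 CPM in Rptor fl/fl mice, against 206 to 640 CPM over the organoid Ribo-seq libraries. The first Rptor fl/fl mouse stood apart in Lgr5, and the groups overlapped.

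All 9 genes were measured in all 6 mice. Together they took 1944, 2025 and 2087 RPM in the WT mice and 1663, 1827 and 1883 RPM in the Rptor fl/fl mice, where RPM is the reads of a gene scaled to 1000000 assigned reads of the library without TMM. Every mouse thus had between 0.166% and 0.209% of its footprints on these 9 genes. The same sum was 17.7, 11.8 and 8.96 RPM in the SCe organoid Ribo-seq libraries and 30.2, 43.9 and 36.1 RPM in the Rptor fl/fl organoid libraries. In RNA-seq it was 39.5 to 51.6 RPM over the WT and Rptor fl/fl organoids and 8.13 to 19.1 RPM in SCe organoids. Mylk made up 84.9% to 85.1% of the summed footprints in Rptor fl/fl organoids and 97.9% to 99.0% of the summed RNA-seq reads outside the SCe cultures. In the SCe Ribo-seq libraries it made up 20%, 76.9% and 73.7%, and the first of these held mostly actin footprints. The share of the mouse footprints that came from tagged ribosomes was not tested.

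**Figure D1:**
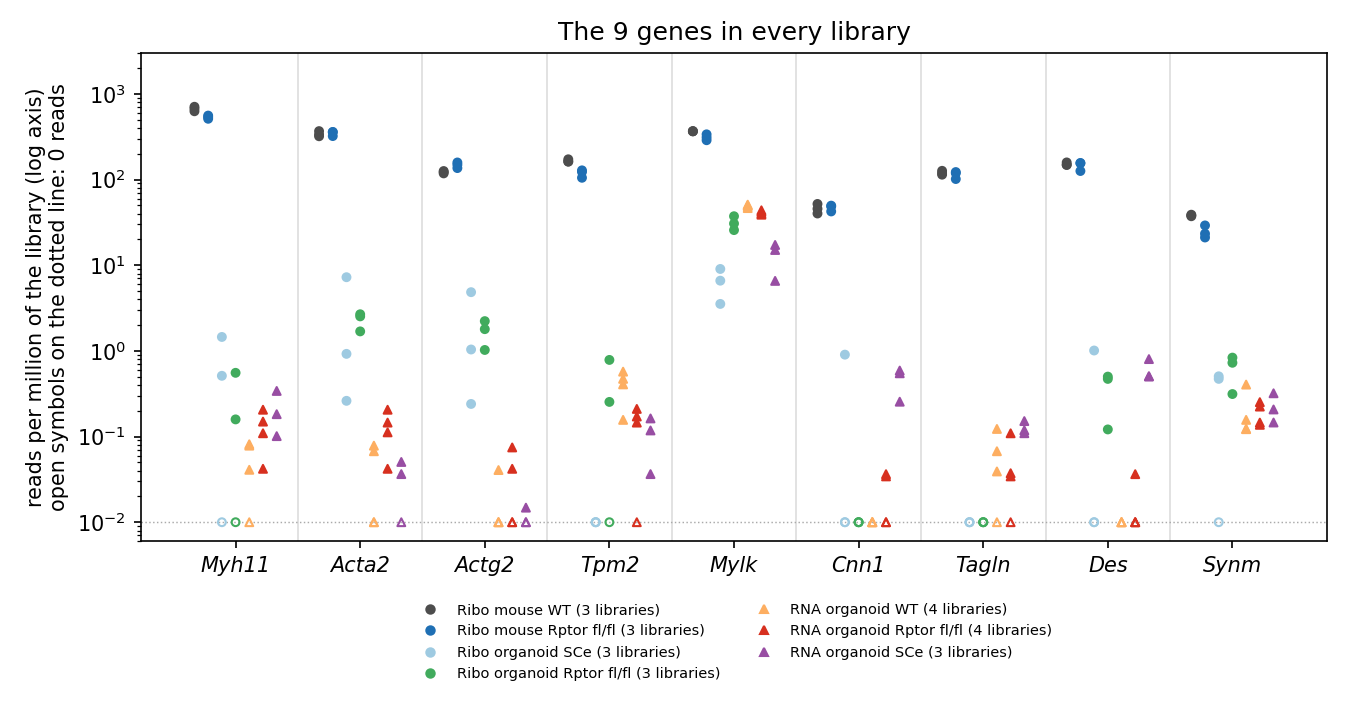
Level of the 9 genes in RPM, on a log axis, for each of the 23 libraries; circles are Ribo-seq and triangles RNA-seq, colours mark the groups, and open symbols on the dotted line are libraries with 0 reads. For every gene the 6 mice lie above all 17 organoid libraries, and Mylk is the gene for which the organoids come closest.

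The first question was how far the members in mice exceeded the background of organoids, which hold no muscle. All 9 were higher in WT mice than in SCe organoids (edgeR, each past the threshold of 0.05 over all genes tested), where 34.4% of the 10965 genes tested were higher. All 9 were also higher in Rptor fl/fl mice than in Rptor fl/fl organoids, where 43.4% of the 12448 genes tested were higher. In a fit of the organoid Ribo-seq libraries alone, only 2 members passed the filter, Mylk and Acta2. The other members entered through their level in mice, so their direction was set beforehand and their calls are a description. These 2 comparisons share no library. Still, the mice and the organoids differ in tissue, Cre driver, tamoxifen schedule, pulldown time and counted sequences, and the SCe organoids also in medium. These differences cannot be told apart. In the mice, footprints on 5′ regions were counted with the gene, and in organoids they were listed apart. Of the members, Acta2 had 1 such footprint over all organoid Ribo-seq libraries and Synm had 5, at most 3 in a library, and the other members had none.

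Myh11, which had 484 to 4597 footprints in a mouse, had 1, 0 and 6 in the SCe organoids and 3, 1 and 0 in the Rptor fl/fl organoids. Its RPM was 1047 times higher in WT mice than in SCe organoids, and at least 1208-fold higher in Rptor fl/fl mice than in Rptor fl/fl organoids when 3 footprints are set as the floor of each organoid library. Without the third SCe library, which held 6 of the 7 SCe footprints, the fitted log2 fold change of Myh11 went from 9.78 to 11.03. Against Rptor fl/fl organoids it went from 11.57 to 12.79 without the first organoid library and to 10.88 without the third. Acta2 had 14, 1 and 1 footprints in the SCe organoids and 10, 17 and 21 in the Rptor fl/fl organoids. The ratio of mice to organoids was 125 for WT mice over SCe organoids and 151 for the Rptor fl/fl groups. Actg2 followed Acta2 across the organoids. It had 10, 1 and 1 footprints when cultures were stem cell enriched and 6, 14 and 15 when Rptor was floxed, and its ratios were 59.2 and 88.7. For both actins the first SCe library held more footprints than the other two SCe libraries, although it was not the deepest. The ratios to SCe organoids rest on it: without that library the fitted log2 fold change went from 7.44 to 9.99 for Acta2 and from 6.40 to 8.50 for Actg2, and without the third SCe library to 6.43 and 5.37. Tpm2 had 0 footprints in each SCe library and 0, 5 and 2 in the Rptor fl/fl organoid libraries, which put it at least 101-fold higher in WT mice and 347 times higher in Rptor fl/fl mice, where its fitted log2 fold change went from 8.66 to 9.79 without the second organoid library.

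Cnn1 and Tagln, which bind actin, were nearly or fully without footprints in organoids. Tagln had 0 in all 6 organoid Ribo-seq libraries, which makes it at least 72.9-fold higher in WT mice and at least 257-fold higher in Rptor fl/fl mice. Cnn1 had 0, 1 and 0 footprints in the SCe organoids and 0 in each Rptor fl/fl organoid library, or at least 27.9-fold and at least 106-fold higher in the mice. Des had 2, 0 and 0 footprints in the SCe organoids and 3, 3 and 1 in the Rptor fl/fl organoids. With 3 footprints as the floor this is at least 92.5-fold higher in WT mice. The same floor gives 328-fold for the Rptor fl/fl groups, which is not a strict bound, since 2 of these libraries held 3 footprints. Synm had 1, 0 and 2 footprints in the SCe organoids, for at least 23.2-fold higher in WT mice, and 5, 2 and 6 in the Rptor fl/fl organoids, for a ratio of 39.3. Against SCe organoids the fitted log2 fold change of Des went from 9.18 to 11.84 without the first SCe library and to 8.01 without the third, and that of Cnn1 from 8.26 to 10.22 without the second and to 7.19 without the third. All members stayed called with any library left out.

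Mylk was the member with a clear level in organoids. It had 7, 10 and 28 footprints in the SCe organoids and 154, 238 and 253 in the Rptor fl/fl organoids, against 282 to 2776 in the mice. Its RPM was 57.4 times higher in WT mice than in SCe organoids (log2 fold change 6.23, SE 0.268, edgeR adjusted p = 8.77e-07). It was 10.0 times higher in Rptor fl/fl mice than in Rptor fl/fl organoids (log2 fold change 3.62, SE 0.131, edgeR adjusted p = 1.53e-10). Mylk encodes a long kinase that non-muscle cells also make and a short protein from its last exons, telokin, which is typical of smooth muscle. The transcript Mylk-203, of 820 counted bases, took 18.3% to 27.3% of the Mylk footprints in mice, 13.5% to 17.3% in Rptor fl/fl organoids and 7.89% to 14.3% of the reads in RNA-seq. In the SCe Ribo-seq libraries all Mylk footprints, 7 to 28 per library, were on Mylk-201. Whether Mylk-203 is the telokin transcript was not tested.

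Within the mice, levels of the members can be compared with each other only per length. Acta2 was first at 231 ± 13.8 footprints in RPM per kb of counted sequence (mean ± SD, n = 6 mice), and its lowest mouse lay above the highest mouse of every other member. Tagln (134 ± 9.89), Tpm2 (129 ± 24.7), Actg2 (109 ± 12.9), Myh11 (99.2 ± 12.9) and Des (97.2 ± 7.81) came next on this scale. The ranges of neighbours in this run overlapped, and part of their order went with genotype. Tpm2 lay above Tagln and Actg2 in each of the 3 WT mice and below both in each of the 3 Rptor fl/fl mice. Mylk followed at 71.6 ± 7.10, Cnn1 at 45.8 ± 4.42 and Synm at 7.81 ± 1.97 footprints in RPM per kb. Des, Mylk, Cnn1 and Synm were separated from each other in every mouse. Among the 17503 genes with a footprint in a mouse, Acta2 ranked 618 by this measure and Synm ranked 7787. The levels hold for the assigned lengths, from 874 bases for Tagln to 6068 for Myh11.

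**Figure D2:**
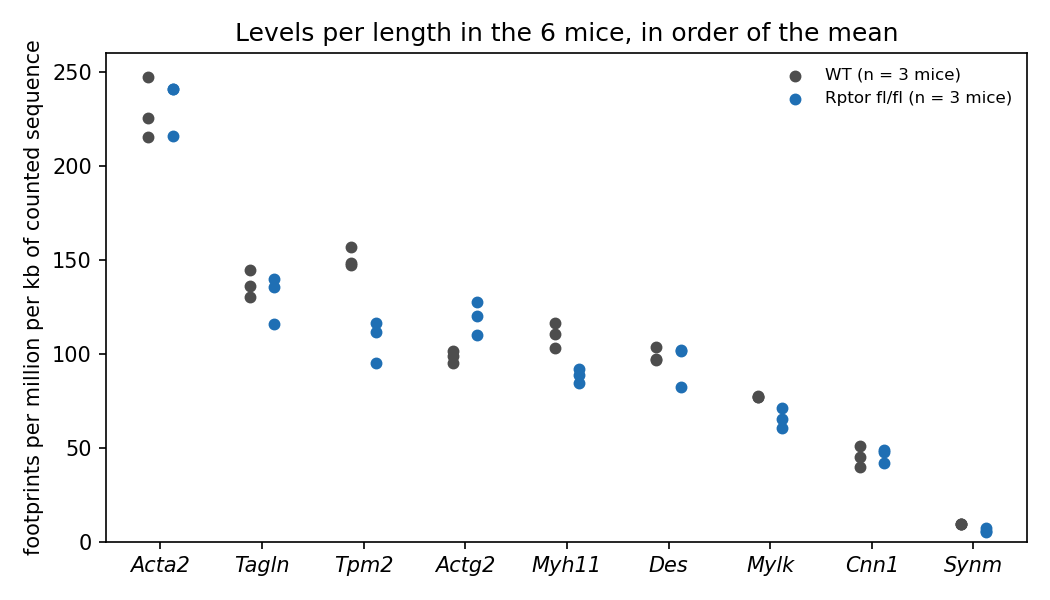
Footprints in RPM per kb of counted sequence for each of the 6 mice, with the 9 genes ordered by their mean; grey points are the 3 WT mice and blue points the 3 Rptor fl/fl mice. Acta2 lies alone at the top between 215 and 247, the middle 5 genes overlap, and Synm lies at the bottom under 10.

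The second question was whether the members differed between the genotypes in mice. Of the 9 members, 1 was higher and 3 were lower in Rptor fl/fl mice (edgeR, adjusted p below 0.05 over all 11515 genes tested). Over all genes tested 7.47% were higher and 5.97% lower, 13.4% together. Actg2 rose, Myh11, Tpm2 and Synm fell, and Acta2, Mylk, Cnn1, Tagln and Des did not pass the test. The median log2 fold change of the 9 was 0.01, against −0.02 over all genes tested. In these bulk libraries, fewer cells of a type and fewer footprints per cell cannot be told apart. The labels give 3 replicates per genotype and no further batch, and p-values measure the spread between these animals only.

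Among the contractile genes, Myh11 had 612, 659 and 690 CPM in the WT mice and 520.5, 559 and 581 CPM in the Rptor fl/fl mice. The 2 genotypes did not overlap, with the Rptor fl/fl mice lower. Myh11 went from 654 ± 39.2 to 553 ± 30.5 CPM (n = 3 each, ± SD). The log2 fold change was −0.25 (SE 0.0737, 95% interval −0.40 to −0.09, edgeR adjusted p = 0.0397). Tpm2 had 168, 159 and 159 CPM in the WT mice and 107, 128 and 133 CPM in the Rptor fl/fl mice, again with no overlap. It went from 162 ± 5.38 to 122.5 ± 13.9 CPM, a log2 fold change of −0.38 (SE 0.0944, interval −0.59 to −0.18, edgeR adjusted p = 0.0134). The 2 smooth muscle actins did not follow. Actg2 had 115, 120.1 and 123 CPM in the WT mice and 138, 164 and 155 CPM in the Rptor fl/fl mice, each of which was above every WT mouse. Its mean went from 119 ± 3.84 to 153 ± 13.2 CPM, a log2 fold change of 0.35 (SE 0.0894, interval 0.16 to 0.54, edgeR adjusted p = 0.0177). Acta2 had 312, 330 and 358 CPM in the WT mice and 327, 372 and 373 CPM in the Rptor fl/fl mice, and the groups overlapped. Its log2 fold change was 0.09 (SE 0.0812, interval −0.08 to 0.26, edgeR adjusted p = 0.529).

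Among the regulators and binding proteins none passed the test. Mylk had 356.5, 359 and 358 CPM in the WT mice, which were close together, and 292.5, 323 and 351 CPM in the Rptor fl/fl mice. The groups did not overlap, but the log2 fold change of −0.15 (SE 0.0795, interval −0.32 to 0.02) had an adjusted p of 0.249 in edgeR. Cnn1 had 39.2, 44.7 and 50.6 CPM in the WT mice and 50.4, 44.2 and 50.5 CPM in the Rptor fl/fl mice, with a log2 fold change of 0.06 (SE 0.121, interval −0.20 to 0.32, edgeR adjusted p = 0.877). Tagln had 111, 124 and 116 CPM in the WT mice and 103, 127 and 123 CPM in the Rptor fl/fl mice, with a log2 fold change of 0.01 (SE 0.0975, interval −0.20 to 0.22, edgeR adjusted p = 0.981). For both genes the 2 genotypes covered nearly the same range.

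The 2 intermediate filament genes differed from each other. Des had 145, 156 and 144 CPM in the WT mice and 128, 161 and 162 CPM in the Rptor fl/fl mice, which lay on both sides of the WT values. Its log2 fold change was 0.03 (SE 0.0998, interval −0.19 to 0.24, edgeR adjusted p = 0.912). Synm, the lowest member with 30, 82 and 199 footprints in the WT mice and 72, 72 and 240 in the Rptor fl/fl mice, had 37.9, 37.4 and 36.4 CPM in WT and 23.7, 21.9 and 30.3 CPM in Rptor fl/fl mice. The groups did not overlap. Synm went from 37.2 ± 0.806 to 25.3 ± 4.42 CPM, a log2 fold change of −0.51 (SE 0.15, interval −0.83 to −0.19, edgeR adjusted p = 0.0366), the largest fall among the members.

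**Figure D3:**
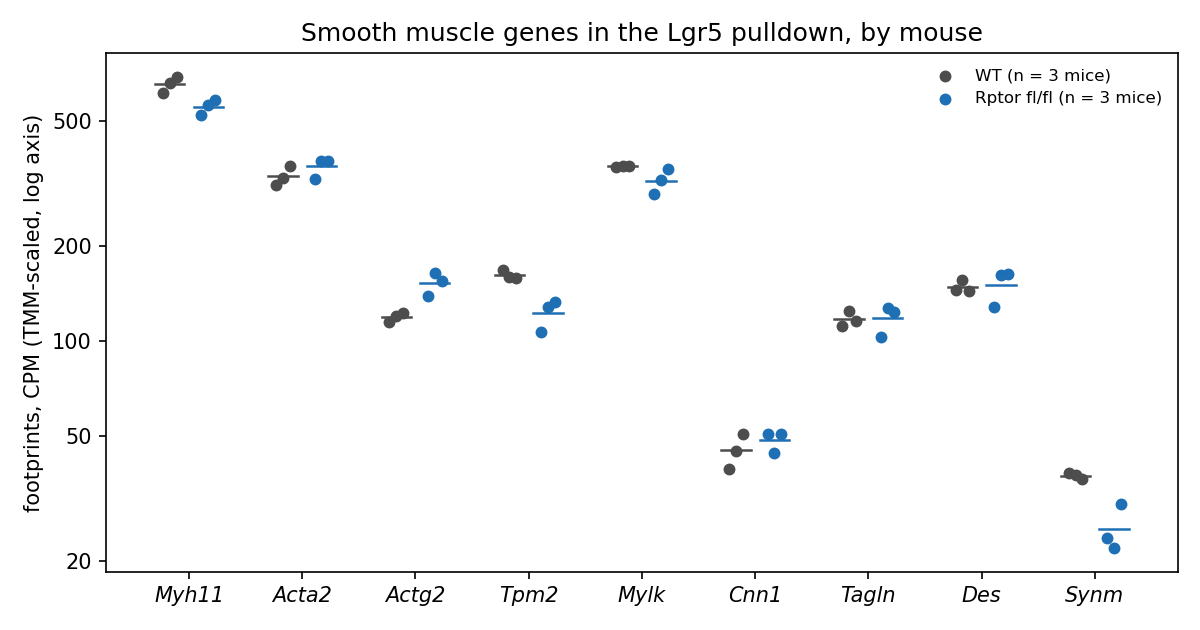
Footprints of each gene in CPM after TMM scaling, on a log axis, for each mouse; grey points are the 3 WT mice, blue points the 3 Rptor fl/fl mice, and each bar is the mean of a group. Myh11, Tpm2, Mylk and Synm show all blue points below all grey points, Actg2 shows the opposite order, and the other 4 genes overlap.

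In all, the CPM of the 2 groups did not overlap for 5 of the 9 members, 1 higher and 4 lower in Rptor fl/fl mice. Of all genes tested, 31.1% did not overlap, 15.6% with Rptor fl/fl higher and 15.5% with it lower. The calls rest on single animals to different degrees. Without WT replicate 3, the deepest WT library, none of the 9 passed the test in edgeR (4 at an unadjusted p below 0.05), and Tpm2 had a log2 fold change of −0.40 with an adjusted p of 0.0618 in edgeR. With each of the other mice left out in turn, Tpm2 was called every time, Actg2 in 2 of those 5 fits, and Myh11 and Synm in 1 each.

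Each member was also set against other genes of the contractile apparatus, in an alternative added after the values had been seen. The 32 other smooth muscle genes summed to 2770 to 2864 RPM in WT mice and 2507 to 2695 in Rptor fl/fl mice. The same sum was 2205 to 2402 RPM in organoid Ribo-seq, so the scale is not one of muscle alone. With library sizes replaced by this sum, Actg2 was 0.38 higher on the log2 scale (SE 0.0898, edgeR adjusted p = 0.0128), Tpm2 was at −0.36 (SE 0.0893, adjusted p = 0.018) and Synm at −0.49 (SE 0.147, adjusted p = 0.0453). Myh11 no longer passed, at −0.21 (SE 0.0711, edgeR adjusted p = 0.0733). All 9 members kept the sign of their difference. A new scale moves every gene by about the same amount, so the kept signs are no separate support.

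**Figure D4:**
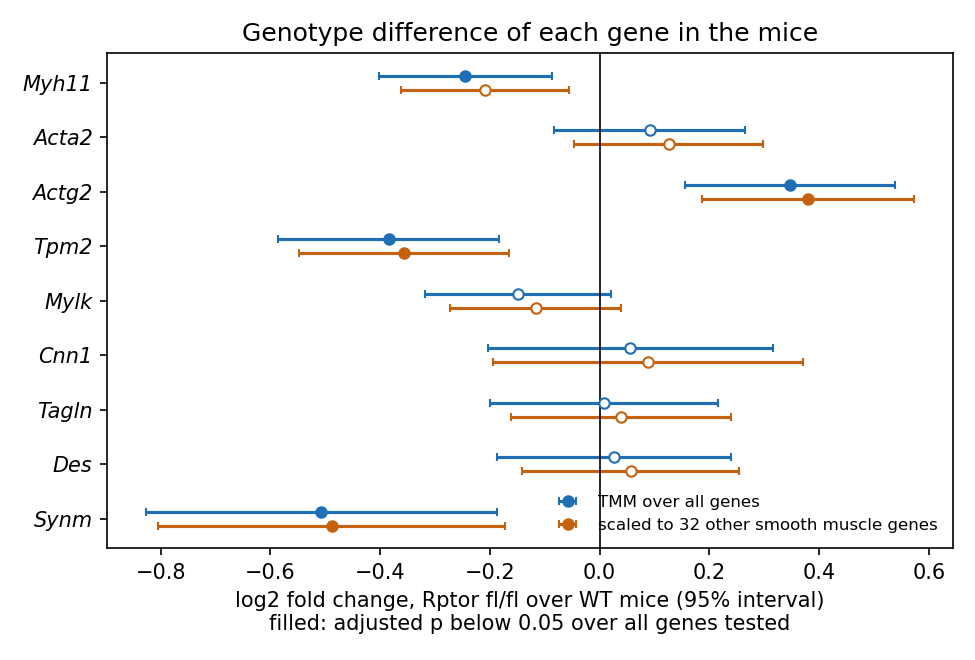
Log2 fold change of Rptor fl/fl over WT mice with its 95% interval for each gene, in blue with TMM scaling over all genes and in orange with the 32 other smooth muscle genes as the scale; filled points have an adjusted p below 0.05. Actg2 lies to the right of 0 and Tpm2 and Synm to its left under both scales, and Myh11 is filled only in blue.

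Ratios of 2 genes within a mouse need no scaling between libraries. The pairs were chosen after the values had been seen, and with 3 mice against 3 the exact two-sided permutation test cannot go below 0.1. The ratio of Actg2 to Acta2 footprints was 0.368, 0.364 and 0.342 in the WT mice and 0.423, 0.442 and 0.416 in the Rptor fl/fl mice. The ratio of Myh11 to Acta2 was 1.96, 2.00 and 1.92 in the WT mice and 1.59, 1.50 and 1.56 in the Rptor fl/fl mice. The ratio of Tpm2 to Tpm1, a tropomyosin gene that the epithelium also uses, was 0.443, 0.413 and 0.45 in the WT mice and 0.323, 0.403 and 0.371 in the Rptor fl/fl mice. The genotypes did not overlap in any of these 3 ratios (exact permutation p = 0.1, the smallest possible).

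The coding sequences of Actg2 and Actb were 82.7% identical, with a longest identical run of 26 bases, so that no window of 28 bases was shared. Actb was higher in Rptor fl/fl mice, from 12110 ± 136 to 15010 ± 1368 CPM (log2 fold change 0.31, SE 0.0683, edgeR adjusted p = 0.0068). The ratio of Actg2 to Actb was 0.00961, 0.00981 and 0.0101 in the WT mice and 0.0103, 0.0104 and 0.00986 in the Rptor fl/fl mice. Here the genotypes overlapped (exact two-sided permutation p = 0.2). In organoids, which have abundant Actb and no muscle, Actg2 had 0.0505 to 0.991 footprints per 1000 of Actb, against 9.63 to 10.4 in the mice. For Acta2 the same measure was 0.0549 to 1.48 in organoids and 23.5 to 29.6 in mice. Acta1, the skeletal actin, was 85.4% identical to Acta2 and 84.7% to Actg2. It had 505 to 651 footprints in the Rptor fl/fl organoid libraries and 36 to 51 in the SCe libraries. Its part in the organoid footprints of Acta2 and Actg2 was not tested. Actg1, the other cytoplasmic actin, had a log2 fold change of 0.03 (SE 0.0694, edgeR adjusted p = 0.821). When Acta2 and Actg2 were summed as a single feature, chosen after the data had been seen, the log2 fold change was 0.17 (SE 0.0785, edgeR adjusted p = 0.19).

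**Figure D5:**
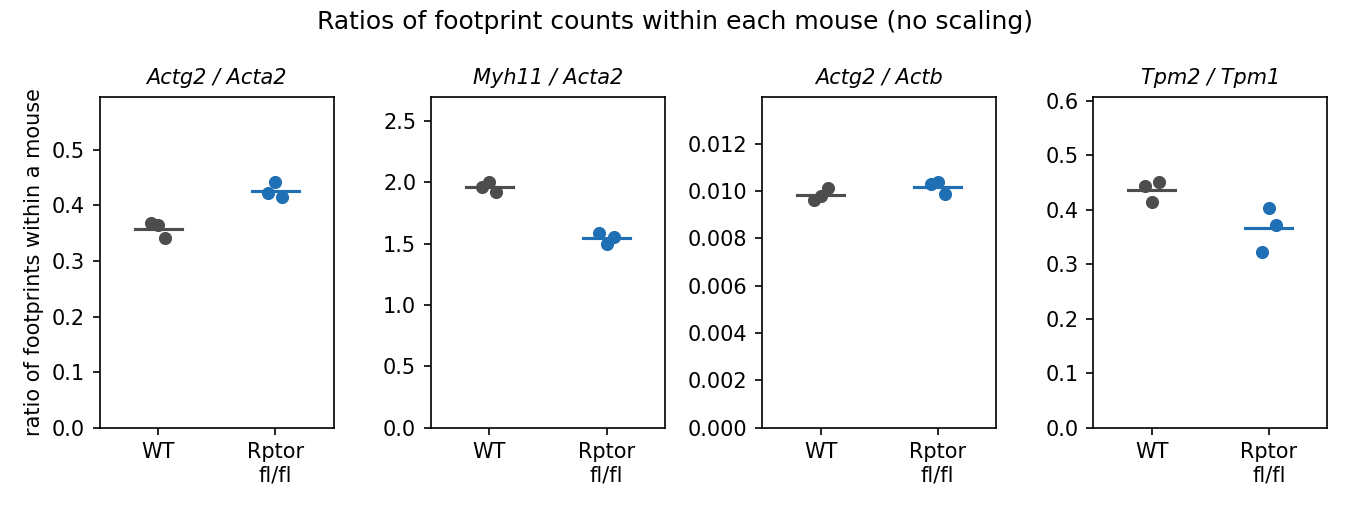
Ratios of footprint counts within each mouse, with axes from 0, for Actg2 over Acta2, Myh11 over Acta2, Actg2 over Actb and Tpm2 over Tpm1; grey points are the 3 WT mice, blue points the 3 Rptor fl/fl mice, and bars are means. The genotypes are apart in Actg2 over Acta2, Myh11 over Acta2 and Tpm2 over Tpm1, and overlap in Actg2 over Actb.

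Other genes of the contractile apparatus and other cell types were read from lists, also chosen with earlier results of these data known. Of the 32 other smooth muscle genes, 29 were tested, 0 were higher and 2 were lower in Rptor fl/fl mice, Smtn (smoothelin) and Csrp1, and DESeq2 called 0. Over all 11515 genes tested, edgeR called 7.47% higher and 5.97% lower, and DESeq2 called 1044. The 2 calls are thus near the share of all genes. The median log2 fold change of the 29 genes was −0.16, with 6 positive and 23 negative values. The 4 with the highest level did not pass the test: the light chain Myl6 at 0.11, filamin Flna at 0.04, Tpm1 at −0.14 and vinculin Vcl at −0.03 on the log2 scale. All 4 are also made by epithelium.

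The 12 listed symbols of smooth muscle transcription factors matched 10 counted genes, and all 10 were tested. Of these, 0 were called in edgeR or DESeq2 (2 at an unadjusted p below 0.05 in edgeR), with a median log2 fold change of −0.19. Srf, the serum response factor, was at −0.37 (SE 0.197, edgeR adjusted p = 0.25), and its cofactors Mrtfa at −0.06 (SE 0.147, adjusted p = 0.865) and Mrtfb at 0.39 (SE 0.138, adjusted p = 0.077). Mrtfb was higher in each Rptor fl/fl mouse than in any WT mouse. Tbx3 (−0.06) and Gata6 (−0.08) had values close to 0. The factors named here are not markers of muscle alone, since each had footprints in every organoid Ribo-seq library. Srf had 11 to 94, Mrtfa 26 to 238, Mrtfb 71 to 971, Tbx3 68 to 326 and Gata6 140 to 779. Myocd, Tbx2 and Meis1, which were too low in mice to be named by the rule used, had 0 footprints there. RefSeq promoters on GRCm38.p6, from 250 bases before to 50 after the start, were at hand for Des, Tpm2, Synm, Cnn1, Mylk and Acta2. The CArG box, which serum response factor binds, was searched on both strands and was found in 0 of these 6 and in 1.63% of 32851 promoters. With 1 base of its core changed, it was found in 2 of the 6, Synm and Acta2, and in 9.98% of all promoters. In Acta2 such matches began 84 and 34 bases before the start, and they are shown in capitals because it was the member with the most.
Acta2 promoter, chr19:34255324-34255623, minus strand: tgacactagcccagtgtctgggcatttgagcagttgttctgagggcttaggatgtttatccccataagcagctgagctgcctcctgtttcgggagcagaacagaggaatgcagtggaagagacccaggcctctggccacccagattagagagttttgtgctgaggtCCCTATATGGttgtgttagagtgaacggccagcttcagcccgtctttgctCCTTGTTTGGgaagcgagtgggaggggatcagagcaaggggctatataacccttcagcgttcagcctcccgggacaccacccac

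Markers of other cells of the gut wall were present beside the muscle genes. The counts of calls per list are to be read beside those over all genes tested, of which 7.47% were higher and 5.97% lower in edgeR. Fibroblast genes summed to 1709 to 1760 RPM in WT mice and 2133 to 2397 in Rptor fl/fl mice, and 8 of 12 were called higher. Fibronectin (Fn1) rose by 0.97 on the log2 scale (SE 0.075, edgeR adjusted p = 3.23e-07), Col1a1 by 0.58 (SE 0.122, adjusted p = 0.00496) and Col3a1 by 0.49 (SE 0.0831, adjusted p = 0.00106), while Col6a1 was at 0.22 (adjusted p = 0.126). The fibroblast sum therefore moved with genotype in the direction opposite to Myh11, Tpm2 and Synm, and its part in their values was not tested. Fn1 and the listed Vim are not markers of stroma alone here. Fn1 had 0 to 936 footprints and Vim 28 to 3494 in the organoid Ribo-seq libraries. In RNA-seq Fn1 was also called higher in Rptor fl/fl than in WT organoids, by 6.42 on the log2 scale. The share of their mouse footprints from epithelium was not tested. Pericytes share part of the contractile apparatus of smooth muscle, and of 6 pericyte genes 1 was lower, Rgs5. Of the 4 genes of interstitial cells of Cajal, the pacemakers of gut muscle, 0 were called in edgeR, also at an unadjusted p, or in DESeq2. Of the 9 enteric neuron genes tested 0 were called by either tool (1 at an unadjusted p below 0.05 in edgeR), and the highest, Chgb, Vip, Uchl1 and Tubb3, had log2 fold changes from −0.13 to 0.11. Chgb is not a marker of neurons alone here, since it had 51 to 3355 footprints in the organoid Ribo-seq libraries, where Vip had 0. Skeletal and cardiac muscle summed to 18.2 to 36.8 RPM, with Myh2, Myh4 and Tnnt3 at 0 in several mice, and 0 of the 3 genes tested were called, also at an unadjusted p. Of 8 endothelial genes 3 were higher, of 3 mesothelial genes 1 was higher, of 7 immune genes 2 were higher and 1 lower, and of 11 pancreatic acinar genes 1 was higher. The mesothelial gene called, Msln, had 4 to 737 footprints in organoid Ribo-seq and the listed Krt19 had 1585 to 27796. That list therefore takes in epithelium. DESeq2 called 0 pericyte, 0 mesothelial, 0 acinar, 1 endothelial, 2 immune and 7 fibroblast genes, and in the epithelial lists 3 stem cell, 4 pan-epithelial, 6 enterocyte and 5 Paneth and goblet genes. Over all 11515 genes tested it called 1044. No enteric glia gene passed the filter. In the epithelium itself, 4 of 8 pan-epithelial genes were higher, among them Epcam at 0.23 (SE 0.0634, edgeR adjusted p = 0.0286), and 3 of 9 stem cell genes were lower. Of 10 enterocyte genes 4 were higher and 1 lower, and of 9 Paneth and goblet genes 4 were higher and 2 lower. Of 9 cytoplasmic actin and non-muscle myosin genes 2 were higher, while Myh9 was at −0.13 (adjusted p = 0.305) and Myh14 at −0.24 (adjusted p = 0.114).

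Members did not vary together across the 6 mice as a block. Of the 36 pairs of members, 7 had a Pearson r above 0.8 over the 6 mice and 4 had an r below −0.5, given as a description without a test, since the mice share the split by genotype. Des and Tagln were closest (r = 0.964), then Tpm2 and Mylk were alike (r = 0.926), and Actg2 and Synm moved most in opposite directions (r = −0.835). The mean log2 CPM of the 9 members ranged from 7.07 to 7.31 over the mice. The genes most like this mean over the 6 mice were Phka1 (r = 0.981), Arih1 (r = 0.98) and Psmb9 (r = 0.974), followed by Cdca4, Guca2a, Ahdc1, H2-Q7, Atp2a3, Plac8 and Mgst1 (r = 0.967). They are the top of 11515 genes tested. With so many genes and only 6 mice, unrelated genes also reach such r, so no shared behaviour is read from them.

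In organoids the question was whether members changed with Rptor in a tissue without muscle, for which 3 members passed the filter in RNA-seq. None of these was called in edgeR, where 22.6% of the 14131 genes tested were, and 2 had an unadjusted p below 0.05. DESeq2 called 1, Mylk (adjusted p = 0.0388), as did edgeR with the line number as a replicate block (adjusted p = 0.0223). The paper's methods mention paired samples from animals induced in vitro, but neither they nor the labels say which lines share an animal. Deviations of same-numbered lines from their group means correlated at r = 0.429 over the 14131 genes. With 2 lines per group the other pairs are at −0.429 by construction, and the numbers were not taken as a pairing. Mylk had 2597 and 2506 reads in the 2 WT lines against 2002 and 2433 in the Rptor fl/fl pair, a log2 fold change of −0.29 (SE 0.0756, edgeR adjusted p = 0.0534). Tpm2 had 28 and 14 reads in the WT lines against 5 and 9 (log2 fold change −1.65, edgeR adjusted p = 0.089). Synm had 15 and 7 reads against 12 and 8 (log2 fold change −0.21, edgeR adjusted p = 0.812). The 6 other members had 0 to 10 reads per line, so no difference was detectable at this depth.

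In Ribo-seq of organoids, 2 members passed the filter. Mylk rose from 6.28 ± 2.39 CPM in the SCe libraries to 31.4 ± 6.13 CPM in the Rptor fl/fl libraries (mean ± SD, n = 3 each), with a log2 fold change of 2.35 (SE 0.304, interval 1.66 to 3.04, edgeR adjusted p = 0.00227), where 6.63% of the 10817 genes tested were higher and 16.5% were called. The 2 groups did not overlap. Acta2, with its 1 to 21 footprints per library, had a log2 fold change of −0.19 (edgeR adjusted p = 0.917), which became 2.53 without the first SCe library. These organoids differ in culture medium as well as in Rptor, and the 2 cannot be told apart. The Rptor fl/fl organoid and mouse libraries used here also served in the comparison of mice with organoids above.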

How the data were processed

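Ribosome profiling of HA pulldowns from mice and organoids and RNA-seq of organoids were used. Per the submitters' processing notes, reads were trimmed with cutadapt 1.18 and quantified with Salmon 1.1.0 on mm10, and the authors deposited an estimated count per GENCODE vM21 sequence, unscaled for depth. Mouse sequences include 5′ regions, while the organoid files list these apart and they were left out. The authors' table of translation efficiency holds their own ratios and p-values and was not used.

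These values were added up per gene, and over the technical libraries of a line, and then rounded. Each of 5 comparisons was fitted over all genes in R 4.3.3 with edgeR 4.0.16 (filterByExpr, TMM, quasi-likelihood test, Benjamini-Hochberg adjustment, threshold 0.05), and the code was tested on simulated data. Chi-square per degree of freedom between mice of a group was 1.56 to 6.35, so none was a copy of another. Folds against groups near 0 are bounds against 3 reads per library. Alternatives were DESeq2 1.42.0, no filter, totals without TMM, totals without the 10 genes with most counts, a length offset, a replicate block, technical libraries taken separately and each library left out.

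Named are the 9 members, the 4 highest genes of the smooth muscle, fibroblast, neuron and cytoplasmic actin lists, transcription factors with at least 10 footprints in every mouse, Lgr5, Epcam and Rptor, and the 10 genes most like the members. Others were chosen with their values in view. The members and lists were chosen with earlier results of these data known. The range of depth per group is given with the results, and where 3 reads are the floor the limit covers counting error only.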

Additional observations from a re-analysis of the deposited data

Results flagged for a closer look

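The difference in Mylk between Rptor fl/fl mice and WT mice was not that between Rptor fl/fl and SCe organoids. The log2 fold change of Rptor fl/fl over WT in mice minus that of Rptor fl/fl over SCe in organoids was −2.51 (SE 0.29, edgeR interaction, adjusted p = 9.98e-05 over 12566 genes). Mylk was lower in Rptor fl/fl in 3 of 3 mice and higher in 3 of 3 organoid libraries, and the organoid contrast also differs in culture medium, so it is not a contrast of genotype alone. In RNA-seq without that difference in medium, Mylk was at −0.29 in Rptor fl/fl against WT organoids (edgeR adjusted p = 0.0534), the same sign as the −0.15 in mice, and it was lower in SCe organoids (6.56 to 17.2 RPM) than in WT organoids (46.4 to 50.9 RPM).

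RNA-seq of SCe organoids entered no comparison and held reads of several members. Its lowest library had 5 reads of Myh11, 22 of Des, 7 of Cnn1, 180 of Mylk and 4 of Synm, each above the 3 reads that a count of 0 allows. Des had 22, 34 and 30 reads and Cnn1 had 7, 37 and 35 in the 3 SCe libraries, while each had at most 1 read in any RNA-seq library of WT or Rptor fl/fl organoids.

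Synm in RNA-seq of WT organoids had 1 of 4 libraries far above the others, at 0.404 RPM. The 4 libraries are technical pairs of 2 lines, and the value rests on 12 reads. How often chance gives such a library was not tested.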

How the results depend on the processing

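The higher level of all 9 members in mice than in organoids kept its direction and its call under each alternative run in both comparisons (99 values each). For members other than Mylk and Acta2 that direction was set beforehand, since they passed the filter through the mice. In mice, 86 of 117 values kept direction and call, 21 lost the call and 10 changed sign. Leaving out a mouse gave 0 to 3 called members and 897 to 1954 called genes, with log2 fold changes of -0.0334 to 0.13 for Des and -0.0397 to 0.0925 for Tagln. Without TMM, Des was at -0.0547, Cnn1 at -0.0245, Tagln at -0.0735 and Actg2 at 0.27 (adjusted p = 0.0538), and the median of all genes moved to −0.10. Same-numbered mice did not deviate together (correlations −0.0264, 0.0113 and −0.0012), and with the replicate block 3 members and 1305 genes were called. Members called were 3 with DESeq2 (1044 genes), with no filter and with a length offset, each losing Synm or Myh11. In RNA-seq of organoids 1 member, Mylk, was called with DESeq2, with the replicate block (4751 genes) and with technical libraries taken separately (7208 genes), and 0 to 1 member and 939 to 2126 genes were called when a line was left out, with Synm between −0.61 and 0.38 (the rise to 0.38 came on leaving out WT line 1, and 0.14 came on leaving out the second Rptor fl/fl line). In Ribo-seq of organoids Mylk was called throughout, 669 to 2682 genes were called when a library was left out, and Acta2 was at 0.35 with the replicate block and between −0.99 and 2.53 when a library was left out. The cause of these changes was not tested. Depth limits the members with few reads in organoids, Synm in mice and the shallow first WT mouse.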

Other observations

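Footprints of Tpm2 were split by the authors' quantification between transcripts Tpm2-201 and Tpm2-203. Tpm2-201 took 25.3%, 43.9% and 39.7% of the Tpm2 footprints in the WT mice and 8.84%, 9.84% and 0% in the Rptor fl/fl mice, and the groups did not overlap. Such splits were unstable for another member, since Myh11-201 took 0%, 78.5% and 45.2% of the Myh11 footprints in the 3 WT mice. The Tpm2 split was seen after the values were known and was not tested.

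The genotype difference in mice varied with the length of the counted sequence, which was not tested. The median log2 fold change was 0.00 for genes under 1 kb and −0.07 for the 1902 genes over 3 kb, of which 9.04% were called lower and 6.15% higher. Myh11, Mylk and Synm are members over 3 kb, and Tpm2, with 1099 bases, is not.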
